A study of Homo sapiens with 10 samples.

Results

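FOS, JUN and JUNB peaks of non-transformed ER-Src cells were compared with each other, and every genomic site was assigned to 1 of 7 combinations of these AP-1 proteins. The 3 peak lists held 276447 peaks on chromosomes 1 to 22 and X, of the 879550 peaks in all 10 lists of the series. Neighbouring summits within 300 bp were joined, also in chains, which gave 155688 merged sites. The study used ChIP-seq to map FOS, JUN, JUNB, NFKB1 (a subunit of NF-κB) and STAT3 in ER-Src cells, a derivative of the breast epithelial line MCF-10A with an inducible fusion of v-Src and the hormone binding part of the estrogen receptor. Each protein had 1 library from non-transformed cells (ethanol, EtOH, with 36 h in the library names) and 1 library from transformed cells (12 h of 4-hydroxy-tamoxifen at 1 μM). No value below therefore has a replicate check, no test between libraries was possible, and the intervals (95%) cover the counting of sites only. Each protein was precipitated with its own antibody, and the names of the FOS, JUN and JUNB libraries end in repB, repA and repC, so protein, antibody and library cannot be told apart. The names of the non-transformed NFKB1 and STAT3 libraries end in repA and repB1. Names of transformed libraries end in repB for FOS and in repA for JUN, JUNB, NFKB1 and STAT3, so the ending differs between states for JUNB and STAT3. Any link of these endings to the shares below was not tested. The fusion protein and its cell background are shared by both states.

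AP-1 is a family of dimeric basic leucine zipper proteins that bind the TPA response element and related DNA sequences. FOS does not form stable homodimers and binds DNA with a partner such as a JUN protein, whereas JUN proteins can also pair with each other. JUN is generally a strong activator in these dimers, JUNB is often a weaker one, and all 3 genes respond rapidly to growth factors and stress in epithelial cells. A shared site in separate libraries shows that both proteins were recovered at the same position in a population of cells, not that they were bound as a dimer.

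The FOS list was the longest, with 119754 peaks from 18619521 filtered reads. JUN had 81444 peaks from 15852999 reads, and JUNB had 75249 peaks from 9178601 reads. List length thus had the same order as depth, and the part of depth in the sizes of the combinations was tested only through the alternatives named with them.

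FOS alone was the most frequent combination, with 43221 sites (27.8%, Wilson interval 27.5 to 28.0%). Sites of all 3 proteins followed closely, with 39874 sites (25.6%, 25.4 to 25.8%). JUN alone accounted for 23615 sites (15.2%), FOS with JUNB for 19849 (12.7%), FOS with JUN for 14787 (9.50%), and JUNB alone for 12720 (8.17%). The pair of JUN and JUNB without FOS was the rarest combination, with 1622 sites (1.04%, 0.99 to 1.09%). In all, 51.1% of the sites had 1 protein, 23.3% had 2 and 25.6% had 3. The order at the top depended on list length: when each list was cut to the length of the JUNB list, FOS alone had 14714 sites and sites of all 3 proteins came first.

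**Figure D1:**
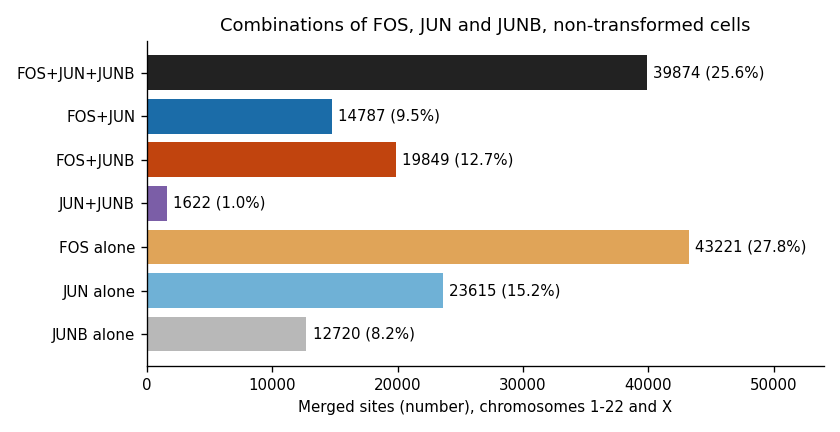
Number of merged sites in each of the 7 combinations of FOS, JUN and JUNB in non-transformed cells (x axis, sites on chromosomes 1 to 22 and X), with the share of all 155688 sites in brackets. FOS alone (43221) and all 3 proteins (39874) are the longest bars and JUN with JUNB (1622) the shortest.

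FOS was present at 75.6% of all merged sites and at most sites of either JUN protein. Of the 74065 sites with JUNB, 80.6% (80.4 to 80.9%) also had FOS, compared with 68.4% (68.1 to 68.7%) of the 79898 sites with JUN. In the other direction, 46.4% of the 117731 FOS sites had JUN and 50.7% had JUNB, and 63.3% had at least one of them. Over all merged sites, JUN was present at 51.3% and JUNB at 47.6%. JUN and JUNB were together at 41496 sites, which is 51.9% of the JUN sites and 56.0% of the JUNB sites. Nearly all of these shared sites also had FOS, since 39874 of the 41496 belonged to the combination of all 3 proteins. Read as shares of each list, the sites of all 3 proteins held 34.1% of the FOS peaks, 50.1% of the JUN peaks and 54.3% of the JUNB peaks.

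The 300 bp limit lay in a sparse range of distances. Of neighbouring summits of different proteins, 100029 pairs lay within 50 bp. There were 1446 such pairs 251 to 300 bp apart, just joined, and 1398 pairs 301 to 350 bp apart, just kept separate. The weaker peak of each pair had a median fold enrichment percentile of 17.5 just inside the limit and 18.4 just outside it, against 56.5 for pairs within 50 bp. The fold enrichment is the ratio of the pileup of reads at the summit to the local background, and the percentile is its rank within the peak list of that protein, with 100 for the strongest peak.

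Peaks were stronger at sites with more proteins. At sites of all 3 proteins the median percentile was 81.9 for FOS, 67.9 for JUN and 70.6 for JUNB, which corresponds to median fold enrichments of 21.3, 7.97 and 11.1. Where a protein stood alone, the median percentile was 26.6 for FOS (fold enrichment 5.95), 26.8 for JUN (5.12) and 17.5 for JUNB (4.94). The pairs lay in between. FOS was stronger next to JUNB (percentile 56.0, interval 55.2 to 56.4) than next to JUN (39.0 at both bounds). JUN had almost the same percentile next to FOS (44.5, 43.8 to 45.2) as next to JUNB (42.5, 39.0 to 44.0), and these intervals overlap. JUNB was stronger next to FOS (42.6, 40.6 to 43.1) than next to JUN (24.8, 23.5 to 26.6). Sites of all 3 proteins had the highest JUN percentile in all settings tried but that with a minimal pileup (at least 2 reads per 1000000 filtered reads), where FOS with JUN had 53.3 and all 3 proteins 49.9.

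**Figure D2:**
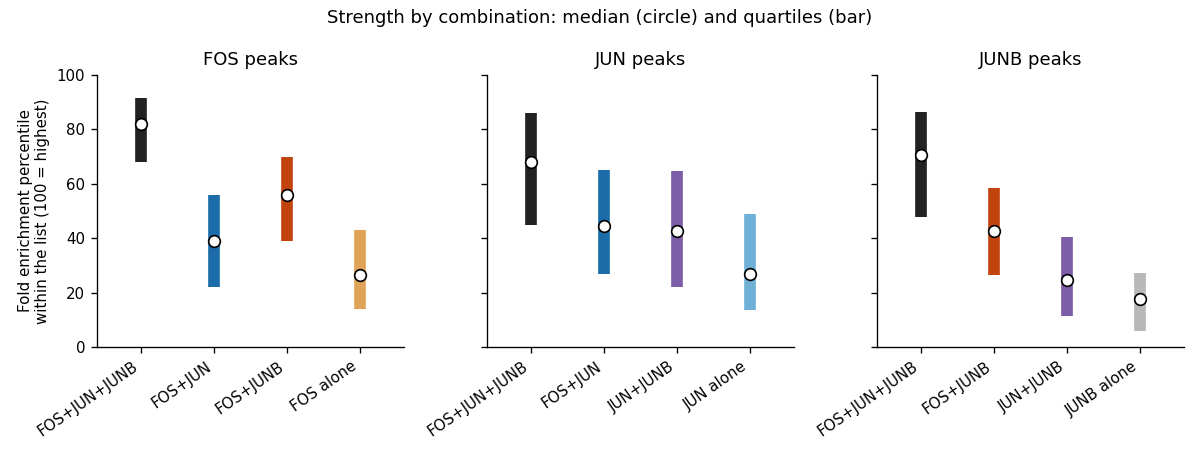
Fold enrichment percentile within the FOS, JUN and JUNB lists (y axis, 100 for the strongest peak) for each combination (x axis), with medians as circles and quartiles as bars. Sites of all 3 proteins have the highest medians in each panel (81.9, 67.9 and 70.6) and sites of a single protein the lowest (26.6, 26.8 and 17.5).

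Among the strongest decile of FOS sites, 11800 of 12050 (97.9%) had all 3 proteins, and 3 had FOS alone. For JUNB the picture was nearly the same, with 7500 of 7610 (98.6%) in the combination of all 3 and 6 sites of JUNB alone. JUN differed from both in its strongest decile, of which 7286 of 8144 (89.5%) had all 3 proteins, 595 (7.31%) had FOS but not JUNB, and 225 (2.76%) had neither partner. In the weakest decile of each list, 72.4% of FOS peaks, 59.9% of JUN peaks and 57.8% of JUNB peaks stood alone. The share of FOS with JUN changed little over the lower 6 deciles of the FOS list (15.6% to 18.4%) and was 0.17% in the strongest decile. The share of FOS with JUNB was instead 6.61% in the weakest decile, 30.6% in decile 7 and 1.88% in the strongest.

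**Figure D3:**
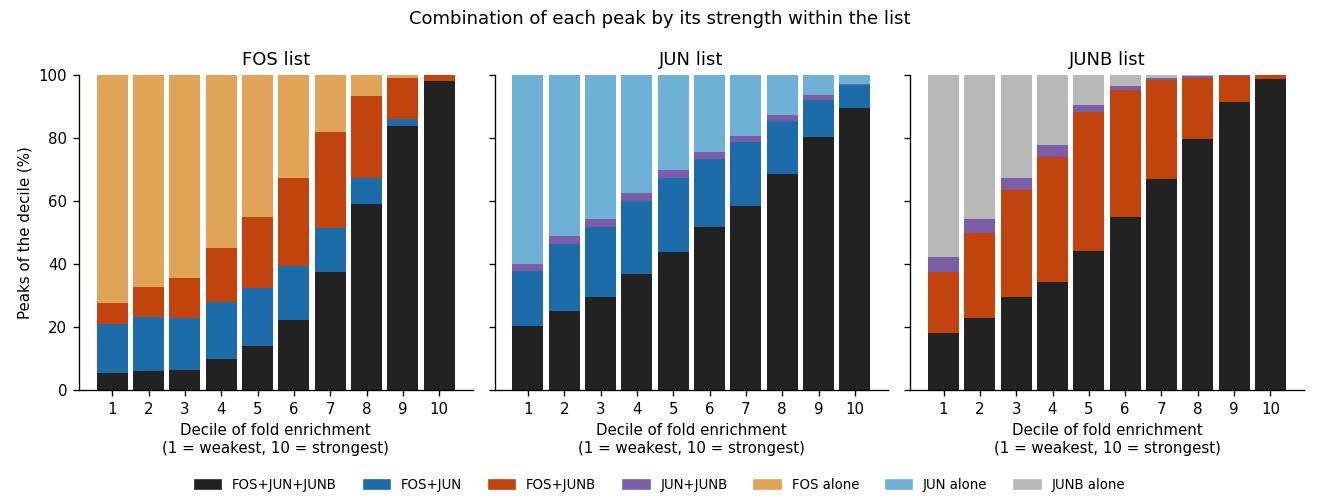
Share of peaks in each combination (y axis, percent of the peaks of the decile) by decile of fold enrichment within the FOS, JUN and JUNB lists (x axis, 1 for the weakest and 10 for the strongest). Sites of all 3 proteins make up 97.9%, 89.5% and 98.6% of the strongest decile, while single proteins account for 72.4%, 59.9% and 57.8% of the weakest.

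Within sites of all 3 proteins, the fold enrichments of FOS and JUNB were most closely related, with Spearman's rho of 0.80 across 39874 sites. The value was 0.61 for FOS and JUN and 0.53 for JUN and JUNB. These are descriptions across sites that share their libraries and local background, and sites are not independent replicates.

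Peaks were wider where more proteins were present. At sites of all 3 proteins the median peak width was 294 bp for FOS, 223 bp for JUN and 213 bp for JUNB, and the merged site spanned 332 bp. Single proteins had median peak widths of 155 bp (FOS), 152 bp (JUN) and 123 bp (JUNB). The fragment length used by the peak caller sets the shortest possible peak, which was 120 bp for FOS, 129 bp for JUN and 123 bp for JUNB. Of the sites of JUNB alone, 55.7% had a peak of exactly this length, compared with 28.8% of JUN alone and 18.9% of FOS alone. At sites of all 3 proteins these shares were 5.49% for JUNB, 6.18% for JUN and 0.67% for FOS. JUNB alone thus consisted largely of minimal peaks, with a median pileup of 6 reads at the summit. FOS peaks had similar widths next to JUN (198 bp) and next to JUNB (199 bp), but with a stricter q-value (−log10 of at least 10) the medians were 292 and 255 bp. In that setting JUN peaks were also no longer widest at sites of all 3 proteins, with 278 bp there and 284 bp at JUN with JUNB.

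The summits of FOS and JUNB lay closest together. At sites of all 3 proteins the median distance was 15 bp for FOS to JUNB (interval 15 to 16 bp), 21 bp for FOS to JUN (21 to 22 bp) and 23 bp for JUN to JUNB (23 to 24 bp). At sites of the pair alone the medians were 20 bp for FOS with JUNB, 33 bp for FOS with JUN and 40 bp (37 to 42 bp) for JUN with JUNB. Of the FOS and JUNB summits at sites of all 3 proteins, 69.2% were within 25 bp of each other, compared with 56.9% for FOS and JUN and 53.1% for JUN and JUNB. Spacing was shorter at stronger sites in each pair. Between the weakest and the strongest quintile of these sites by mean percentile, the median went from 27 to 10 bp for FOS to JUNB, from 33 to 15 bp for FOS to JUN, and from 39 to 16 bp for JUN to JUNB. At the 38043 sites with 3 distinct summit positions, FOS was in the middle at 41.0%, JUNB at 35.3% and JUN at 23.7%. No pair was shifted to one side of the genome by more than a median of 2 bp.

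**Figure D4:**
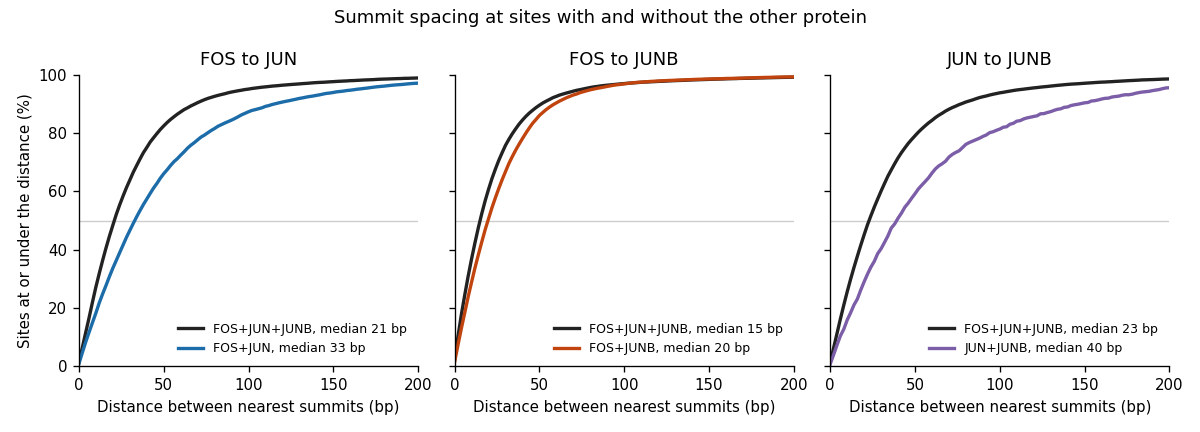
Cumulative share of sites (y axis, percent) by the distance between nearest summits (x axis, bp) for each pair of proteins, with sites of all 3 proteins in black and sites of the pair alone in color. The median distances are 21 and 33 bp for FOS to JUN, 15 and 20 bp for FOS to JUNB, and 23 and 40 bp for JUN to JUNB.

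The strongest sites by mean percentile, named outside chromosome 8, show the range of these combinations. Fold enrichments of libraries of different depth are not on one scale, so values of different proteins or states at a named site are not directly comparable. The third of the ranked sites of all 3 proteins, chr14:44785907-44786424 (hg19, as are all positions here), had fold enrichments of 94.7 for FOS, 37.6 for JUN and 75.8 for JUNB in non-transformed cells. The values in transformed cells were 61.1, 44.0 and 72.6, and STAT3 had 7.47 before and 14.3 after transformation. NFKB1 had 8.05 and 9.09. The site was at the top of all 3 AP-1 lists, and its FOS percentile was 100 before and 99.998 after transformation. Its percentiles were 61.3 and 71.4 in the NFKB1 lists and 59.0 and 75.5 in the STAT3 lists of the respective states. The second site, chr1:145042603-145043656, was also listed for all 10 libraries, with 88.6 for FOS, 40.9 for JUN and 72.1 for JUNB, and STAT3 had 38.6 before and 78.2 after transformation. The first site, chr6:58776495-58779287, stood apart by its width of 2793 bp and by nearly equal values of all 5 proteins in non-transformed cells (77.3 to 86.5). Its recovery whatever the antibody was not tested. A site at the median of the combination, chr3:148760831-148761098, had 17.4 for FOS, 7.90 for JUN and 10.6 for JUNB, with STAT3 at 5.84 and NFKB1 not listed in non-transformed cells.

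Top sites of FOS with JUN were far weaker than those of all 3 proteins. At chr3:124459906-124460179, FOS had a fold enrichment of 33.6 and JUN of 19.9, JUNB and STAT3 were not listed, and NFKB1 had 4.83. In transformed cells the same site was listed for all 5 proteins, with fold enrichments of 27.5 (FOS), 33.7 (JUN), 18.0 (JUNB), 9.09 (NFKB1) and 7.88 (STAT3). At chr18:43649478-43649854, FOS had 30.1 and JUN 22.2, and JUNB was listed with 20.5 in transformed cells. The widest of the 3, chr16:54880680-54881464, had 41.4 for FOS and 20.5 for JUN, and JUNB was listed in neither state.

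For FOS with JUNB, the site chr19:14936860-14937159 had 41.0 for FOS and 26.1 for JUNB, with no JUN, NFKB1 or STAT3 peak in non-transformed cells. In transformed cells it had values of 51.8 (FOS), 25.3 (JUN), 45.6 (JUNB), 7.69 (NFKB1) and 28.7 (STAT3). At chr6:152320316-152320700, FOS had 39.9 and JUNB 30.3 in non-transformed cells, and in transformed cells JUN was listed with 11.5 and STAT3 and NFKB1 were not. The strongest site of this kind, chrX:140499392-140500705, had 49.8 for FOS and 35.3 for JUNB. It contains another of the top sites of JUNB alone outside chromosome 8, chrX:140500396-140500676 (JUNB 21.9), because the FOS peak there was 1314 bp wide with its summit over 300 bp away.

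The top site of JUN with JUNB, chr1:121484052-121485523, was a case of the same kind. JUN had a fold enrichment of 74.0 and JUNB of 76.2 there. The strongest site of FOS alone, chr1:121484111-121485514 (FOS 66.2), covered the same region with its summit at 121484850 rather than 121485275 (JUN) and 121485215 (JUNB). At the JUN with JUNB site, NFKB1 had 92.6 and STAT3 92.1 in non-transformed cells. Their percentiles were 99.9925 and 99.9836, against 99.9988 for JUN and 99.9947 for JUNB. In transformed cells it had 54.9 (FOS), 63.2 (JUN), 67.9 (JUNB), 61.5 (NFKB1) and 61.6 (STAT3). Whether this region is recovered whatever the antibody was not tested. Separate sites whose peaks overlapped numbered 2115 (1.36%) over all combinations, but 224 of 1622 (13.8%) for JUN with JUNB. Clear of such overlap, chr10:109731051-109731483 had 17.6 for JUN and 33.2 for JUNB, and FOS was not listed in non-transformed cells but had 51.1 in transformed cells.

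Outside chromosome 8, the top site of JUN alone had a higher percentile (99.9975) than that of FOS alone (99.78) or JUNB alone (92.7). At chr10:80679797-80680173, JUN had a fold enrichment of 56.3 before and 62.1 after transformation, and no other protein was listed in either state. At chr20:36023291-36023593 JUN had 49.50 and 49.99, and the other values were 8.80 for FOS and 5.59 for NFKB1 in transformed cells. At chr19:42034556-42034885 JUN had 42.1 and 35.7, with STAT3 at 6.22 and 7.17, and NFKB1 had 6.29 in transformed cells. Apart from the overlapping site on chromosome 1, the strongest FOS alone site was chr7:4815061-4815366, where FOS had 34.5 before and 11.4 after transformation. The strongest site of JUNB alone outside chromosome 8, chr4:124740615-124740883, had 22.4 and 23.5 for JUNB in the respective states.

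The other lists of the same cells were not used to define the combinations. A STAT3 summit within 300 bp was found at 22.1% of all merged sites and an NFKB1 summit at 7.31%. STAT3, a signal-dependent transcription factor downstream of cytokine receptors and Src, was listed at 49.0% (48.5 to 49.5%) of the sites of all 3 proteins and at 40.0% (39.2 to 40.8%) of the sites of FOS with JUN. In contrast, it was listed at 10.4% (10.0 to 10.9%) of the sites of FOS with JUNB, which was close to FOS alone (8.92%) and JUN alone (9.71%). The share was 21.9% (19.9 to 24.0%) for JUN with JUNB and 2.44% for JUNB alone. NFKB1 had the same first 3 combinations, with 18.4% for all 3 proteins, 12.0% for FOS with JUN, 7.58% for JUN with JUNB, against 2.34% for FOS with JUNB. The NFKB1 library had the fewest reads of the 10 (4837474), which limits how many weak NFKB1 sites it could show. Both proteins were listed at 5.08% of all merged sites, at 14.8% of those of all 3 proteins, at 8.20% of those of FOS with JUN and at 0.85% of those of FOS with JUNB.

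FOS with JUN thus had STAT3 3.83 times as often as FOS with JUNB (29.6 percentage points more), and NFKB1 5.11 times as often, although its FOS peaks were weaker. Within quintiles of the FOS list, the STAT3 share of FOS with JUN was 30.2% in the weakest quintile and 64.7% (58.9 to 70.0%, 283 sites) in the strongest. For FOS with JUNB the corresponding shares were 7.30% and 21.1% (19.3 to 23.03%, 1793 sites), and the intervals of the pairs did not overlap in any quintile. FOS alone had shares of 6.94% to 28.9%, and its interval was separate from and above that of FOS with JUNB in quintiles 3 and 4. Sites of all 3 proteins had shares of 29.4%, 31.6%, 33.7%, 38.2% and 59.7% from the weakest to the strongest quintile. FOS with JUN was above them in each quintile (30.2%, 37.9%, 42.2%, 50.7% and 64.7%), with separate intervals in quintiles 2, 3 and 4, so that matching on FOS strength turned the order of these combinations seen over all sites. STAT3 was more frequent at FOS with JUN than at FOS with JUNB on each of 23 chromosomes, with 29.3% to 49.1% against 7.86% to 13.0%. The same held for NFKB1 on each of 23 chromosomes, with 8.17% to 14.8% against 0.74% to 3.74%. The matching by strength and by chromosome was chosen after the shares had been seen.

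Matched on JUN strength, the STAT3 share of FOS with JUN ran from 26.6% in the weakest quintile to 65.3% in the strongest. JUN alone had 5.72% to 23.1% over the same quintiles, and sites of all 3 proteins had 21.6% to 74.1%. Matched on JUNB strength, sites of all 3 proteins had STAT3 shares of 41.6% to 60.1%, compared with 8.86% to 17.9% for FOS with JUNB. STAT3 summits were found at median distances of 33 to 36 bp from the AP-1 summits at sites of all 3 proteins, 42 to 43 bp at FOS with JUN and 44 to 47 bp at FOS with JUNB. At JUNB alone the median distance was 90 bp (77 to 109 bp, 310 sites).

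**Figure D5:**
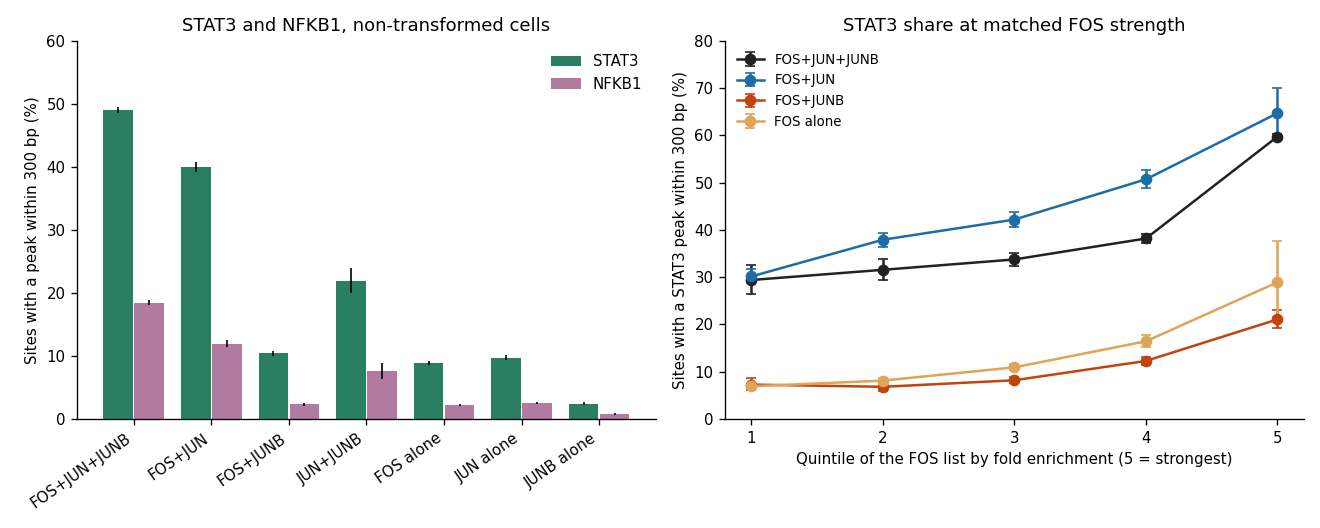
Left, share of sites with a STAT3 or NFKB1 summit within 300 bp in non-transformed cells (y axis, percent) for each combination (x axis), with Wilson 95% intervals. Right, STAT3 share (y axis, percent) by quintile of FOS fold enrichment (x axis, 5 for the strongest), where FOS with JUN runs from 30.2% to 64.7% and FOS with JUNB from 7.30% to 21.1%.

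The order of the combinations was similar for the longer STAT3 and NFKB1 lists of transformed cells. STAT3 was listed there at 37.3% of all merged sites and NFKB1 at 35.3%. At FOS with JUN the shares were 55.6% for STAT3 and 56.0% for NFKB1, compared with 30.5% and 24.3% at FOS with JUNB, which are ratios of 1.82 and 2.31. At sites of all 3 proteins the shares were 74.5% and 74.3%. JUNB alone again had the lowest, 6.82% and 5.61%.

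The combinations also differed in how often the AP-1 proteins were listed at the same sites after transformation. Of all merged sites, 69% had a FOS summit, 62.9% a JUN summit and 51.9% a JUNB summit in transformed cells. All 3 were listed at 44.7% of all merged sites and none of them at 22%. Of the sites of all 3 proteins, 92.7% had all 3 in transformed cells as well and 0.28% had none. FOS with JUNB had all 3 at 61.9% and FOS with JUN at 49.0%. JUN was listed at 71.8% of FOS with JUNB, above its share of all merged sites and above FOS alone (43.3%) and JUNB alone (13.3%). With the minimal pileup, which also shortened the transformed lists, these shares were 40.3%, 15.7% and 7.84%. The share of all merged sites was not computed at that setting. JUNB was listed at 54.3% of FOS with JUN, which is close to its share of all merged sites and above FOS alone (36.7%) and JUN alone (7.14%). FOS was listed at 55.6% of the sites of JUN with JUNB, below its share of all merged sites but above JUN alone (23.8%) and JUNB alone (21.6%). With the stricter q-value JUNB alone had 59.5% and JUN with JUNB 53.9%. The shares of all merged sites include sites where the protein was already listed in non-transformed cells. The transformed libraries were deeper for each of the 3 proteins (22082403 reads for FOS, 18454386 for JUN and 15750765 for JUNB), and the part of depth in these shares was not tested.

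Single-protein sites were found again less often than sites of all 3 proteins. The same protein was listed in transformed cells at 65.6% of the sites of FOS alone, 44.1% of JUN alone and 13.3% of JUNB alone. The ending of the library name differed between states for JUNB (repC and repA) but not for FOS or JUN, and its part in these shares was not tested. These shares depended on the setting: the share for JUNB alone was 43.4% with the stricter q-value, 32.5% with the minimal pileup and 25.01% with lists of equal length, and with the minimal pileup JUN alone (63.8%) was above FOS alone (48.7%). JUN remained the only one of the 3 mapped AP-1 proteins at 5993 sites of JUN alone (25.4%), FOS at 8530 sites of FOS alone (19.7%) and JUNB at 256 sites of JUNB alone (2.01%). None of the 3 proteins was listed at 72.3% of JUNB alone, 49.1% of JUN alone and 26.6% of FOS alone. None of the 7 other lists of the series had a summit at 20.1% of all merged sites, and at 69.8% of the sites of JUNB alone, 44.5% of JUN alone and 24.0% of FOS alone. At the other end, 5404 sites of all 3 proteins (13.6%) were listed for all 5 proteins in both states, compared with 4.1% of all merged sites.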

How the data were processed

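Peak calling by the authors was done per library with MACS 2.0.10.20131216, per the file headers. No control library was given, the reads had 36 bp, 1 read was kept per position, the local background was estimated over 1000000 bp, and the q-value cutoff was 0.05. The submitters' processing notes name Bowtie and the build hg19. In the deposited lists, the pileup is the signal (how many extended reads cover the summit), not scaled for depth. The deposited p-value and q-value columns are −log10 values, and the deposited fold enrichment is the ratio of pileup to background. Weak sites depend on depth, and without a control library regions that are recovered whatever the antibody stay in the lists.

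Samples were assigned from their titles. All peaks on chromosomes 1 to 22 and X were used, and summits within 300 bp of the next were joined. Where a protein had several peaks at a site, its strongest gave strength and width, and spacing was taken between the nearest summits. Shares have Wilson intervals and medians have order-statistic intervals, both at 95%. They cover counting error only, and overlap with another list meant a summit within 300 bp of an AP-1 summit of the site. Sites were named by a fixed rule: for each combination, the 3 with the highest mean percentile of fold enrichment, outside chromosome 8, and the median site of all 3 proteins. The members, the combinations and the naming rule were chosen with earlier results of these data known. The computations used Python 3.11.15, numpy 2.4.6, pandas 2.3.3, scipy 1.17.1 and matplotlib 3.10.9, and the code was tested on simulated data. Alternatives were a merge distance of 150 bp, no chaining, overlap of whole peaks, a −log10 q-value of at least 10, lists of equal length, a pileup of at least 2 per 1000000 reads, all sequences of the lists, percentiles of the pileup or of the −log10 p-value in place of fold enrichment, and the strongest summits for the spacing. Site sequences, motifs and genes were not analysed here, because the reference at hand was GRCh38 and coordinates were not converted between builds. A planned comparison of the protein sequences was not analysed here either.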

Additional observations from a re-analysis of the deposited data

Results flagged for a closer look

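Peaks outside chromosomes 1 to 22 and X were not used for the combinations, and the lists of non-transformed cells held some. On the mitochondrial genome there were 12 FOS peaks, 16 JUN peaks and 13 JUNB peaks. On chromosome Y the respective numbers were 105, 54 and 38. There is no control library to set these numbers against, and they are given as values.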

How the results depend on the processing

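With a −log10 q-value of at least 10, there were 16452 sites of all 3 proteins (22.5% of the sites), 4812 of FOS with JUN, 141 of JUN with JUNB, 4286 of JUN alone and 1125 of JUNB alone. The spacing at sites of all 3 proteins was then 17 bp for FOS to JUN, 12 bp for FOS to JUNB and 18 bp for JUN to JUNB, and the STAT3 share was 38.4% for FOS with JUN and 7.07% for FOS with JUNB. With lists of equal length there were 7335 sites of FOS with JUN, 3530 of JUN with JUNB and 14714 of FOS alone, all 3 proteins had 30.0% of the sites, and the STAT3 shares of the pairs were 46.7% and 11.9%. With a pileup of at least 2 per 1000000 reads there were 2206 sites of all 3 proteins (8.44%), 288 of FOS with JUN, 12470 of FOS with JUNB, 16 of JUN with JUNB, 8987 of FOS alone, 395 of JUN alone and 1786 of JUNB alone, the spacing was 14, 10 and 15 bp, and the STAT3 share of FOS with JUN was 42.7%. Sites of all 3 proteins made up 23.9% with merging at 150 bp, 25.3% without chaining and 25.1% with whole peaks. Merging at 150 bp gave a STAT3 share of 38.03% for FOS with JUN, and whole peaks gave 9.86% for FOS with JUNB. These settings drop weak peaks or pairs by construction, and other causes of the changes were not tested.

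Of the 94 main values recomputed, 60 stayed within the limits set for them. In 8 of 8 settings (as deposited, all sequences of the lists, and the 6 named above) STAT3 and NFKB1 were more frequent at FOS with JUN than at FOS with JUNB (3.66 to 5.42 and 3.91 to 5.88 times), and JUN with JUNB was the rarest combination. FOS alone was the most frequent in 6 of 8, with all 3 proteins first at equal list length and FOS with JUNB first at the minimal pileup. The STAT3 share was highest at sites of all 3 proteins in 6 of 8, the exceptions being the stricter q-value and the minimal pileup, which also shortened the STAT3 and NFKB1 lists. FOS and JUNB had the closest summits in 9 of 9. Matching by strength and by chromosome was added after seeing the data, and without chromosome 19 the STAT3 shares of the pairs were 39.8% and 10.4%. No paired analysis was possible because each protein had 1 library per state, and for the same reason no replicate could be left out. Motif and gene distance alternatives were not run, since they need the hg19 sequence and annotation.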

Other observations

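The combinations were not spread in the same way along the genome. Another merged site lay within 5 kb of 66.1% of the sites of all 3 proteins and 68.1% of those of FOS with JUN, but of 50.95% of those of FOS with JUNB and 46.6% of those of JUNB alone (58.2% of all sites). The nearest other site of all 3 proteins was at a median distance of 11.8 kb for FOS with JUN and 21.1 kb for FOS with JUNB.

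Composition also varied between chromosomes. JUN alone made up 12.9% of the sites on chromosome 18 and 28.1% on chromosome 19, where FOS with JUN was likewise at its highest share (14.9%) and FOS with JUNB (8.92%) and all 3 proteins (19.98%) were at their lowest. On chromosome X, FOS with JUN had its lowest share (7.06%) and FOS with JUNB its highest (15.2%). The median over the 23 chromosomes was 14.6% for JUN alone, 9.55% for FOS with JUN and 12.9% for FOS with JUNB. With 1 library per protein, these are values of single libraries, and gene content, base composition and copy number were not analysed here.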
